A study of Rattus norvegicus with 6 samples.

Results

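The genes described here build NAD, phosphorylate it to NADP, or remove the nicotinamide it is recycled from. They were 10 rows of the deposited count table, picked by gene symbol from 18930 rows: Nampt, Naprt, Nmrk1, Nadsyn1, Nmnat1, Nmnat2, Nmnat3, Nadk, Nadk2 and Nnmt. Each symbol had a single row. RNA came from NRK-52E cells, an established epithelial line from normal rat kidney labelled wild type (WT). The Control group had 3 samples of cells given vehicle, and the STZ group had 3 samples of cells given streptozotocin at 10 mM for 24 h before RNA extraction. STZ is a nitrosourea joined to glucosamine that alkylates DNA. The labels do not say whether the samples were separate cultures, so p-values measure the spread between these samples, which may be technical.

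NAD carries electrons in metabolism and is also a substrate that some enzymes use up. Poly(ADP-ribose) polymerases (PARPs), which are activated by DNA strand breaks such as those that follow alkylation, split NAD and release nicotinamide, and sirtuins do so when they deacetylate proteins. Cells make NAD again by salvage: NAMPT joins nicotinamide to a phosphoribosyl group, and NMNAT enzymes turn the product, nicotinamide mononucleotide, into NAD. Other entry routes start from nicotinic acid (NAPRT, then NADSYN1), from nicotinamide riboside (NMRK1) or from tryptophan. The kidney tubule, with its high demand for ATP, is a tissue in which NAD supply has been much studied.

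Total counts were 10430924 to 12737131 in Control and 11658253 to 15191349 in STZ, and 1 read was worth 0.0667 to 0.0943 CPM (counts per 1000000 reads of the library) after library scaling. Levels are given below as CPM scaled by TMM, edgeR's factor for library composition. They compare samples for 1 gene but not genes with each other, because counts were not divided by transcript length. Values of single samples are listed in the order of the replicate numbers. Of 13 markers of tubule epithelium, 10 had rows and 7 of these had at most 10 reads in every sample, among them Lrp2 and Slc34a1 of the proximal tubule, while Krt8 and Aqp1 were read well. Mesenchymal Vim and Col1a1 were also read well, as were Col3a1 and Pdgfrb. The other 2 of 6 fibroblast markers, Col1a2 and Pdgfra, had at most 10 reads in every sample. So did 2 of 3 leukocyte markers, Ptprc and Cd3e, while Cd68 had 7 to 29 reads. All 3 endothelial markers, Pecam1, Cdh5 and Kdr, had at most 10 reads in every sample. The summed level of the epithelial markers was 1122 to 1196 CPM in Control and 1606 to 1622 CPM in STZ, and that of the 6 fibroblast markers was 2004 to 2205 CPM in Control and 1893 to 1926 CPM in STZ. Each sum was mostly 1 gene. Krt8 alone had means of 1149 CPM in Control and 1604 CPM in STZ, and Vim alone 2001 and 1842 CPM. Of the epithelial markers tested, Krt8 was higher and Aqp1 and Cdh1 were lower, and all 4 fibroblast markers tested were lower. The part of these shifts in the results on NAD genes was not tested. In bulk RNA, a lower level in every cell cannot be told apart from fewer cells that hold the transcript.

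With STZ, Nampt fell by 28.5% and Nadsyn1 fell by 30.6%, whereas Nnmt and Nmrk1 rose to 2.21 and 1.61 times the Control level. The NAD kinase gene Nadk was nearly the same in both groups, and none of the 3 Nmnat genes passed the test. Of the 10 genes, 9 passed the filter on low counts, and Naprt did not. Genes were called at an adjusted p below 0.05, by edgeR's quasi-likelihood F test and the Benjamini-Hochberg method across 11870 genes. By that rule, 2 of the 9 were higher, against 25.9% of all genes tested, and 2 were lower, against 25.1%. In either direction 4 of 9 stood beside a background of 50.9%. Only Nnmt also passed an absolute log2 fold change of 1, against a background of 3.37%. The median log2 fold change was -0.09 over the 9 genes and -0.01 over all genes tested. The shares past the adjusted p alone lay near the background and are no result about the NAD genes as a group.

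**Figure D1:**
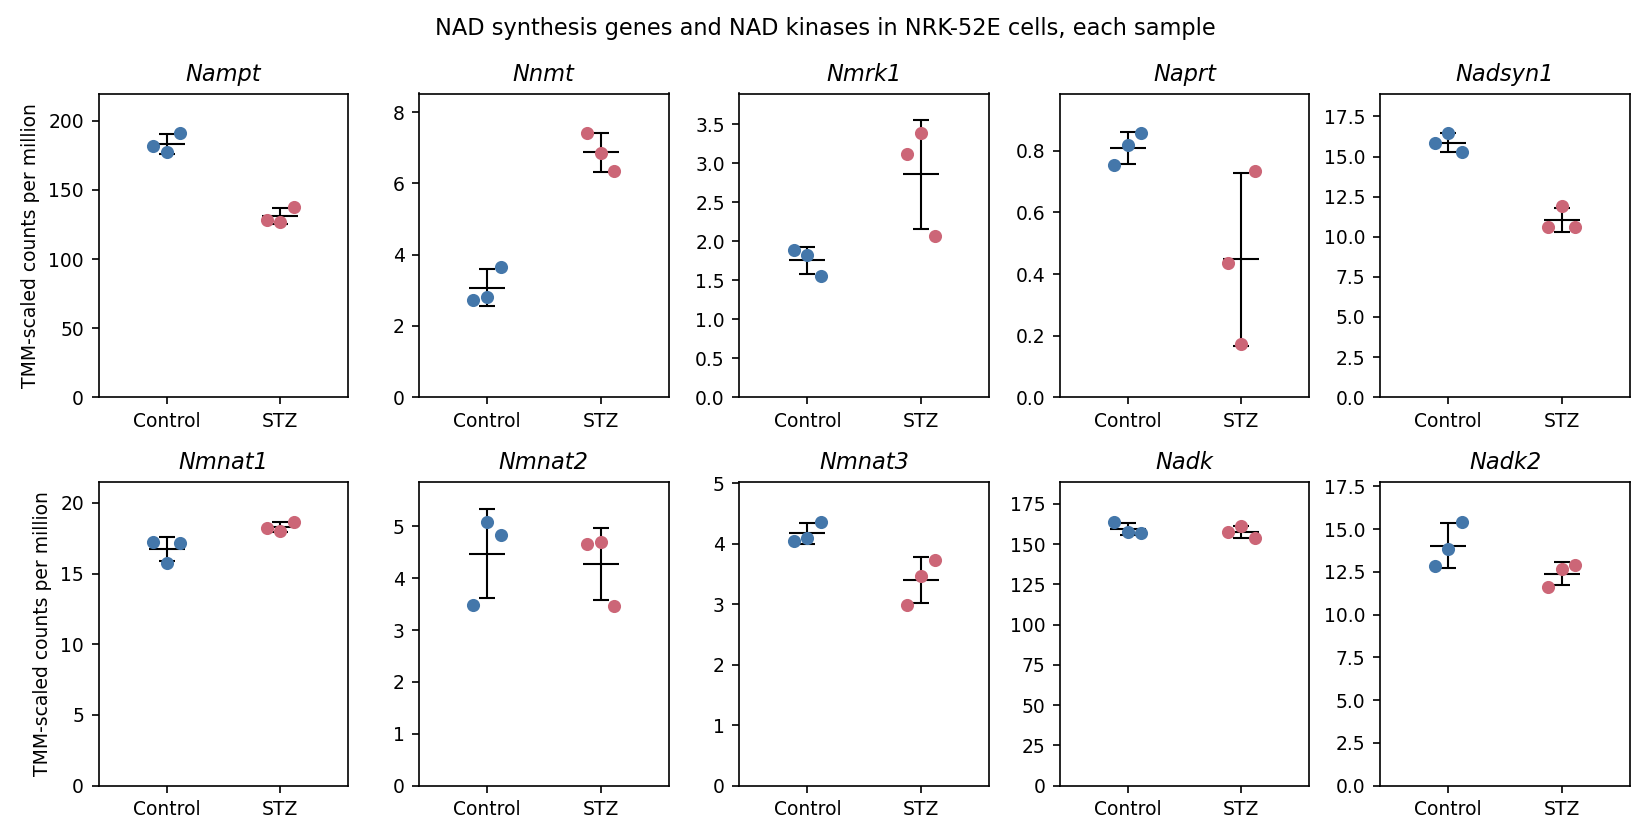
TMM-scaled CPM (vertical axis, from 0, a separate scale for each gene) in the 3 Control and 3 STZ samples. Points are samples, horizontal bars are means and whiskers are 1 SD (n = 3). The groups separate widely for Nampt, Nnmt and Nadsyn1 and overlap for Nmnat2, Nadk and Nadk2.

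Recycling of nicotinamide starts with Nampt, which encodes nicotinamide phosphoribosyltransferase, the rate-limiting enzyme of salvage in mammals. Its level was 181, 177 and 191 CPM in Control, against 129, 127 and 138 CPM in the STZ replicates. Every STZ sample lay below every Control sample, with between 1463 and 2451 reads behind each value. The means were 183 ± 7.05 CPM in Control (SD, n = 3) and 131 ± 5.76 CPM in STZ (SD, n = 3). The log2 difference, STZ minus Control, was -0.48 ± 0.04 (SE), with an adjusted p of 1.7e-12 by edgeR. The 95% confidence interval put the STZ level at 0.673 to 0.761 of the Control level. Of all genes tested, 6.85% had a more negative log2 fold change.

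Nnmt encodes nicotinamide N-methyltransferase, which methylates nicotinamide with S-adenosylmethionine and so takes it out of salvage. Its level was 2.73, 2.82 and 3.67 CPM in Control, against 7.41, 6.86 and 6.34 CPM in the STZ replicates. The lowest STZ sample thus stood well above the highest Control sample. The read counts were 29 to 47 in Control and 79 to 102 in STZ. The log2 fold change was 1.14 ± 0.18 (SE), with an adjusted p of 6.4e-07 by edgeR and a 95% confidence interval for the fold of 1.72 to 2.82. Only 1.76% of genes tested had a larger rise. In the GRCr8 annotation Nnmt, Nmnat2 and Nadk2 each share bases with a lncRNA that has no name, 3 others (Nmrk1, Nmnat1 and Nadk) each overlap a pseudogene, and the remaining 4 overlap no gene. These overlaps are of whole gene spans, introns included, and overlap of the counted exons was not examined. How the counting treated strand is not given in the sources used here, so reads of genes with overlapping exons may be mixed.

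Nmrk1 encodes a nicotinamide riboside kinase. Its level was 1.89, 1.82 and 1.56 CPM in Control, against 3.13, 3.39 and 2.07 CPM in the STZ replicates. The groups did not overlap, but STZ replicate 3 lay nearer to Control than to the other STZ samples. Reads numbered 20 in each Control sample and 31 to 43 in the STZ samples. The log2 fold change came to 0.69 ± 0.25 (SE), with an adjusted p of 0.022 by edgeR and a 95% confidence interval for the fold of 1.13 to 2.3. This call did not hold with DESeq2 (adjusted p = 0.08), without Control replicate 3 (adjusted p = 0.086 by edgeR), without STZ replicate 1 (adjusted p = 0.087) or without STZ replicate 2 (adjusted p = 0.11). Across all alternatives its log2 fold change was 0.56 to 0.89.

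Naprt and Nadsyn1 serve the route from nicotinic acid. Naprt encodes nicotinate phosphoribosyltransferase, which makes nicotinic acid mononucleotide, and was barely read in these cells. It had 8, 9 and 11 reads in Control, against 6, 2 and 11 reads in the STZ replicates, or 0.754 to 0.858 CPM in Control and 0.174 to 0.734 CPM in STZ. The CPM values of the groups just failed to meet, and STZ replicate 3 had as many reads as Control replicate 3. With no filter its log2 fold change was -0.78 (SE 0.49, with an adjusted p of 0.25 by edgeR), so a change could not be detected at this depth.

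Nadsyn1 encodes NAD synthetase, which amidates nicotinic acid adenine dinucleotide to NAD at the end of the nicotinic acid and tryptophan routes. It had 15.8, 16.5 and 15.3 CPM in Control, against 10.6, 11.9 and 10.6 CPM in the STZ replicates. All STZ samples were below all Control samples. The log2 fold change was -0.53 ± 0.10 (SE), with an adjusted p of 4.4e-05 by edgeR and a 95% confidence interval for the STZ level of 0.600 to 0.803 of Control. Nampt and Nadsyn1 therefore fell by similar proportions, from different branches of the pathway; their log2 fold changes were not tested against each other.

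The promoter windows of the called genes Nmrk1 (higher) and Nadsyn1 (lower) are shown because they carry opposite changes. Both come from RefSeq (build GRCr8), run 5′ to 3′ on the gene's strand, and span 250 bases before the annotated start and 50 after it. The Nmrk1 window is chr1:225475812-225476111 (plus strand) and the Nadsyn1 window is chr1:208439158-208439457 (minus strand). Capitals mark matches, on either strand, to the CCAAT box (its letters are its name), the GC box (GGGCGG), the AP-1 element (TGACTCA) or the p53 half-site, none of which overlapped in these windows.
Nmrk1: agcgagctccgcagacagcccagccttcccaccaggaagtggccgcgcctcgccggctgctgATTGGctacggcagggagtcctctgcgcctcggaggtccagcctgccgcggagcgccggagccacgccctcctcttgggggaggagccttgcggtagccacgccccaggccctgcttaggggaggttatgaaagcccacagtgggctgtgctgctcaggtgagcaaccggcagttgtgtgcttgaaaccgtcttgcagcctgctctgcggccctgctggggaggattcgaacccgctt
Nadsyn1: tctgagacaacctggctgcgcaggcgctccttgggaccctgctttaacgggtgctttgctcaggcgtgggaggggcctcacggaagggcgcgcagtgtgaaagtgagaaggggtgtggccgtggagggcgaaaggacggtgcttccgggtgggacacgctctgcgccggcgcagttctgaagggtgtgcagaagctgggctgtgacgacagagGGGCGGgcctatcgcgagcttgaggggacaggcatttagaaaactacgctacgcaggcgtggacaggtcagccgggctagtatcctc
The Nmrk1 window held 1 match to the CCAAT box, on the opposite strand, and the Nadsyn1 window held 1 match to the GC box. Of 33469 rat promoter windows searched, 37.5% held the CCAAT box, 33.1% the GC box, 4.63% the AP-1 element and 7.98% the p53 half-site. Of the 10 genes, 6 had a window in the table (Nmnat1, Nmnat2, Nmnat3, Nadsyn1, Nmrk1 and Nadk2), and in none of the 6 was a match to the AP-1 element or the p53 half-site found. GC content was 67.3% in the Nmrk1 window and 63.7% in the Nadsyn1 window, against a median of 51.7% over all windows. A match of letters is a description of the window only.

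The Nmnat genes encode the enzymes that every route passes through, a nuclear enzyme (NMNAT1), a Golgi and cytosolic one (NMNAT2) and a mitochondrial one (NMNAT3). Nmnat1 had 17.3, 15.7 and 17.2 CPM in Control, against 18.2, 18.0 and 18.7 CPM in the STZ replicates. Its STZ samples were all above its Control samples, and the log2 fold change was 0.13 ± 0.09 (SE). It did not pass the test (adjusted p of 0.23 by edgeR). The interval of the fold was 0.965 to 1.24.

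Nmnat3 had 4.05, 4.09 and 4.37 CPM in Control, against 2.98, 3.48 and 3.74 CPM in the STZ replicates. Here all STZ samples were below all Control samples, with 40 to 56 reads each. The log2 fold change was -0.30 ± 0.19 (SE), with an adjusted p of 0.20 by edgeR, and the interval of the fold, 0.624 to 1.06, took in both a sizeable fall and no change.

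Nmnat2 had 3.49, 5.09 and 4.83 CPM in Control, against 4.65, 4.69 and 3.47 CPM in the STZ replicates. The groups overlapped throughout. On the log2 scale it differed by -0.09 ± 0.19 (SE), with an adjusted p of 0.73 by edgeR, and the interval of the fold was 0.724 to 1.23. The 3 Nmnat genes thus had point values on both sides of no change, none of them past the test. Among the 9 genes tested, the groups did not overlap in 3 that were higher (Nnmt, Nmrk1 and Nmnat1) and 3 that were lower (Nampt, Nadsyn1 and Nmnat3), against 28.6% and 27.7% of all genes tested and 56.3% in either direction.

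NAD kinases convert NAD to NADP, from which cells make the NADPH used for synthesis and for defence against oxidants. Nadk, for the cytosolic kinase, had 164, 157 and 157 CPM in Control, against 158, 161 and 154 CPM in the STZ replicates. The values of the groups were interleaved, with at least 1731 reads in every sample. STZ differed from Control on the log2 scale by -0.02 ± 0.04 (SE), with an adjusted p of 0.76 by edgeR. Its 95% confidence interval for the fold, 0.932 to 1.05, left room for small changes only.

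Nadk2, for the mitochondrial kinase, had 12.8, 13.8 and 15.4 CPM in Control, against 11.6, 12.7 and 12.9 CPM in the STZ replicates. STZ replicate 3 lay just above Control replicate 1, so the groups overlapped narrowly. On the log2 scale STZ minus Control was -0.18 ± 0.11 (SE), with an adjusted p of 0.15 by edgeR, and the interval of the fold was 0.758 to 1.02.

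**Figure D2:**
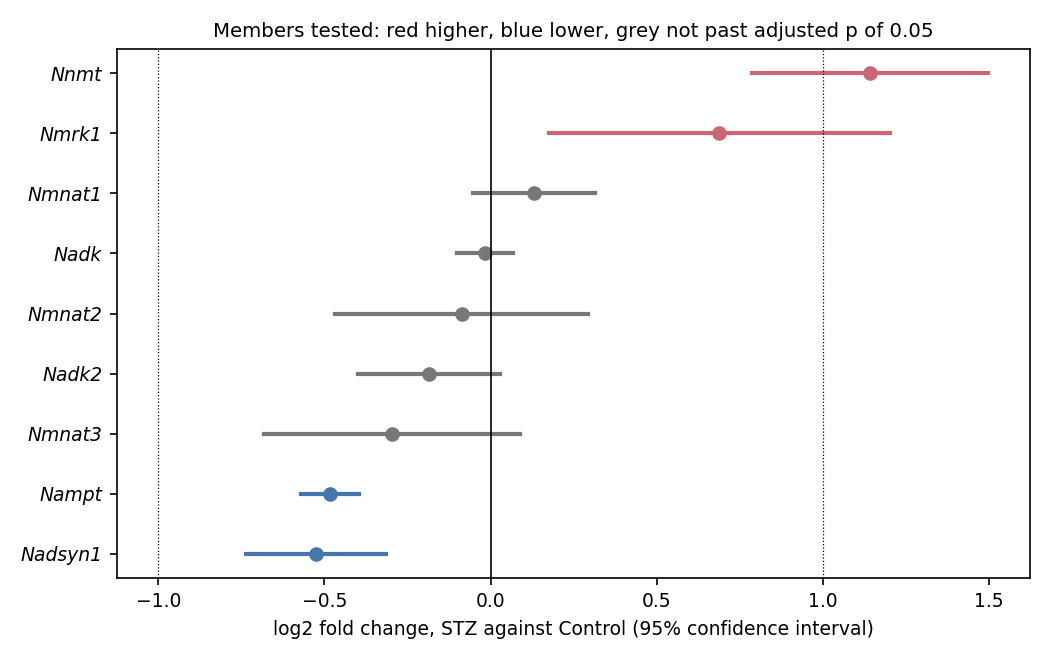
Log2 fold change of STZ against Control (horizontal axis) for the 9 genes tested, with 95% confidence intervals from edgeR; dotted lines mark an absolute log2 fold change of 1. Nnmt (1.14) and Nmrk1 (0.69) lie to the right in red, Nampt (-0.48) and Nadsyn1 (-0.53) to the left in blue, and the 5 grey genes have intervals that include 0.

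The balance between genes was also read within each sample, as the log2 ratio of the counts of 2 genes after adding 0.5 to each. The ratio uses no library scaling factor, though the added 0.5 weighs more where reads are few. The 7 pairs were compared by an exact two-sided permutation test, for which 0.1 is the smallest p that 3 samples against 3 allow, so no pair could pass 0.05. Nampt over Nnmt, recycling against methylation of nicotinamide, had log2 ratios of 6.03, 5.95 and 5.69 in Control, against 4.11, 4.20 and 4.43 in the STZ replicates. This ratio showed the largest shift of the 7, -1.64 on the log2 scale, to 0.32 times its Control value (exact permutation p = 0.1, 0.23 adjusted over 7 pairs).

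For Nampt over Nmrk1 the log2 ratio went from 6.68 ± 0.20 in Control (SD, n = 3) to 5.53 ± 0.44 in STZ (SD, n = 3), a difference of -1.15. Nmnat1 over Nmnat3 went the other way, from 1.99 ± 0.08 in Control to 2.42 ± 0.15 in STZ (SD, n = 3), a difference of 0.43. In both pairs the groups did not overlap and the exact permutation p was 0.1, or 0.23 adjusted over 7 pairs. The other 4 pairs overlapped. Among them, Nadk over Nadk2 differed by 0.16 (exact permutation p = 0.3), and by 0.08 without Control replicate 3 to 0.24 without Control replicate 1. Nmnat1 over Nmnat2 differed by 0.19 (exact permutation p = 0.5), and by 0.04 without STZ replicate 3 to 0.38 without Control replicate 1. Nampt over Naprt differed by 0.51 (exact permutation p = 0.4) and Nadsyn1 over Naprt by 0.47 (exact permutation p = 0.7), and both rest on the 2 to 11 reads of Naprt in STZ. Without STZ replicate 2, in which Naprt had 2 reads, they were 0.04 and -0.08, and without STZ replicate 3 they were 0.89 and 0.92. With nothing added to the counts, Nampt over Naprt differed by 0.60 and Nadsyn1 over Naprt by 0.56.

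**Figure D3:**
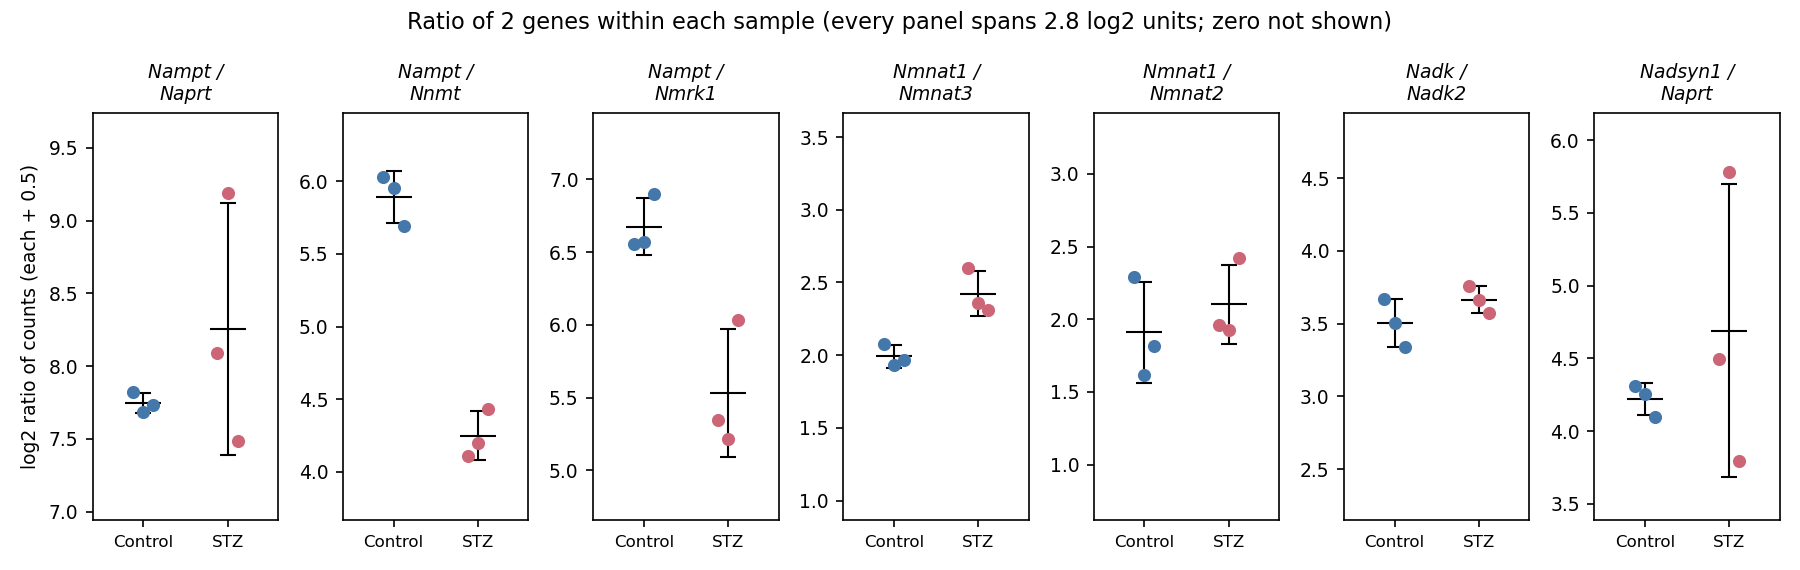
Log2 ratio of the counts of 2 genes within a sample (vertical axis; each panel spans the same number of log2 units and does not start at 0) in the 3 Control and 3 STZ samples, with means and SD. The STZ samples lie below Control for Nampt over Nnmt and Nampt over Nmrk1, above it for Nmnat1 over Nmnat3, and overlap with it in the other 4 panels.

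Around these genes, the pathway was described by 3 further lists. Of 15 genes of the tryptophan route and other entry steps, 8 had rows and 4 passed the filter, with 2 higher and 0 lower, beside 25.9% and 25.1% of all genes tested. With 4 genes tested, these counts are no result about the list. Slc12a8, whose product has been described as a transporter of nicotinamide mononucleotide, had 1.04, 2.55 and 1.64 CPM in Control, against 5.16, 3.48 and 3.87 CPM in the STZ replicates. Every STZ sample was higher, and the log2 fold change was 1.26 ± 0.25 (SE), with an adjusted p of 3.6e-05 by edgeR, on 11 to 28 reads in Control and 40 to 71 in STZ. Pnp, for purine nucleoside phosphorylase, which can split nicotinamide riboside, had a log2 fold change of 0.11 (adjusted p = 0.024 by edgeR), a call that did not hold with library size only (adjusted p = 0.12), with upper-quartile scaling (adjusted p = 0.065), without Control replicate 3 (adjusted p = 0.13) or without STZ replicate 2 (adjusted p = 0.093). For the tryptophan route, only Afmid passed the filter, at a log2 fold change of -0.15 that did not pass the test (adjusted p = 0.35 by edgeR).

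Of 24 NAD-consuming enzymes, 22 had rows and 21 were tested. Of these, 9 were higher and 3 lower, with a median log2 fold change of 0.10, beside the 25.9% and 25.1% of all genes tested. With library size only, 6 were higher and 5 lower, so this split moved with the scaling. Parp1, for the main PARP activated by DNA breaks, had 205, 192 and 200 CPM in Control, against 151, 153 and 142 CPM in the STZ replicates. All STZ samples were lower, with a log2 fold change of -0.42 ± 0.04 (SE) and an adjusted p of 2.8e-11 by edgeR. Parp2, for the related enzyme of single-strand break repair, fell as well, to 41.9 ± 1.38 CPM in STZ from 58.5 ± 2.79 CPM in Control (SD, n = 3), which is -0.48 on the log2 scale (adjusted p = 4.4e-09 by edgeR). The third gene that was lower, named after its values were seen, was Sirt5, for a mitochondrial deacylase, at a log2 fold change of -0.18 ± 0.07 (SE) and an adjusted p of 0.034 by edgeR. That call did not hold with no filter (adjusted p = 0.054), with DESeq2 (adjusted p = 0.11), or without Control replicate 1 (adjusted p = 0.065), Control replicate 2 (adjusted p = 0.10), STZ replicate 1 (adjusted p = 0.11) or STZ replicate 3 (adjusted p = 0.080).

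Parp3, for another PARP that responds to DNA breaks, rose instead, to 160 ± 3.63 CPM in STZ from 117 ± 3.28 CPM in Control (SD, n = 3). On the log2 scale Parp3 differed by 0.45 ± 0.04 (SE), with an adjusted p of 1.1e-11 by edgeR, the smallest p of the list. Parp10, for a mono-ADP-ribosyltransferase and also named after its values were seen, had the largest rise of the NAD-consuming enzymes tested, to 83.8 ± 6.61 CPM in STZ from 58.9 ± 2.79 CPM in Control (SD, n = 3). On the log2 scale this was 0.51 ± 0.06 (SE), with an adjusted p of 4.3e-10 by edgeR. Sirt1, for the nuclear NAD-dependent deacetylase, had 30.9 ± 0.96 CPM in Control and 30.9 ± 1.03 CPM in STZ (SD, n = 3), with a 95% confidence interval for the fold of 0.906 to 1.1. Other sirtuin genes, also named after their values were seen, went higher or did not pass. Sirt2 and Sirt7 were higher, at log2 fold changes of 0.21 and 0.33 (adjusted p = 0.00022 and 0.00021 by edgeR). Sirt3, Sirt4 and Sirt6 did not pass the test (adjusted p = 0.11, 0.83 and 0.051 by edgeR). Their alternatives are not given here. Cd38, for an NAD hydrolase of the cell surface, had at most 1 read in any sample and was not tested.

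Of 9 genes of NAD(P) carriers, hydrolysis and repair, 8 had rows and all 8 were tested, with 1 higher and 1 lower, beside the 25.9% and 25.1% of all genes tested. With 8 genes tested, these counts are no result about the list. Naxd, for the dehydratase that repairs hydrated NADH and NADPH, had a log2 fold change of 0.22 (adjusted p = 0.019 by edgeR). Nnt, for the mitochondrial transhydrogenase that makes NADPH from NADH, had one of -0.11 (adjusted p = 0.02 by edgeR). Both were small, and neither call held in every alternative. Without STZ replicate 2 the adjusted p was 0.083 for Naxd and 0.091 for Nnt, and without STZ replicate 3 it was 0.057 and 0.11. The Naxd call also did not hold without Control replicate 1 (adjusted p = 0.12), without Control replicate 3 (adjusted p = 0.057) or with DESeq2 (adjusted p = 0.07).

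**Figure D4:**
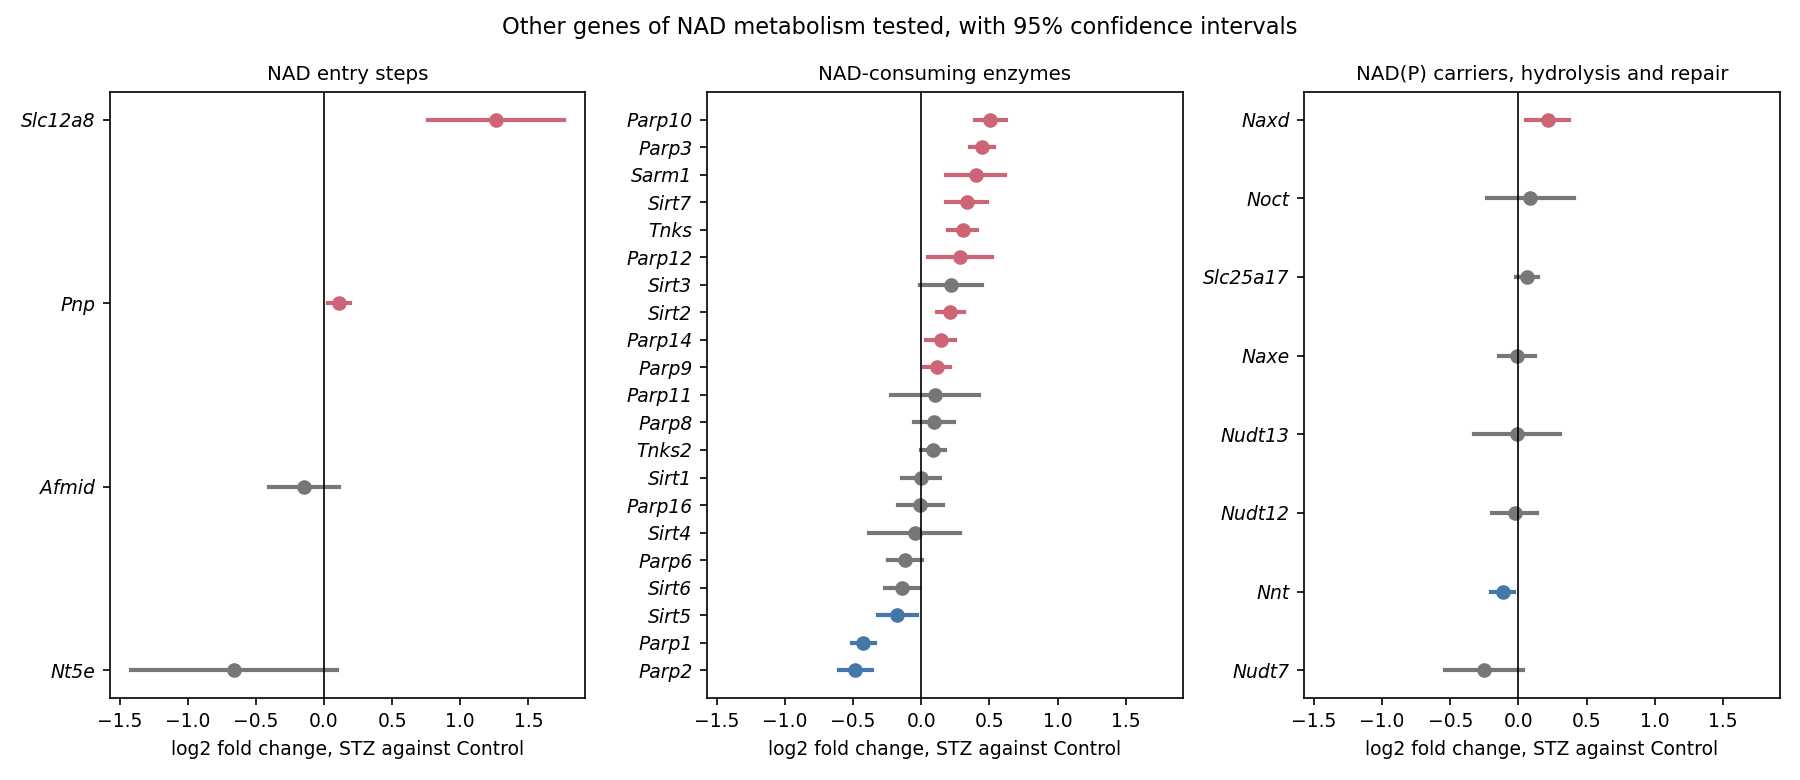
Log2 fold change of STZ against Control (horizontal axis) with 95% confidence intervals for the tested genes of the 3 further lists; red is higher, blue lower and grey not past an adjusted p of 0.05. Slc12a8 (1.26) lies farthest to the right, and Parp1 (-0.42) and Parp2 (-0.48) are the lowest of the NAD-consuming enzymes, while Parp10 (0.51) and Parp3 (0.45) are the highest.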

How the data were processed

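RNA of 3 Control and 3 STZ samples of NRK-52E cells was sequenced. Libraries were made with a stranded mRNA kit and read as single ends. The authors aligned reads with STAR 2.7.10a to rat Rnor6, assigned those that mapped uniquely to genes with featureCounts (Subread), and deposited raw counts without normalization, 1 column per sample. Columns were matched to samples by title, and every column was used.

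From these counts, TMM scaling, the filter on low counts (filterByExpr, default settings) and the quasi-likelihood test were computed on the whole table with edgeR 4.0.16 in R 4.3.3. P-values were adjusted by Benjamini-Hochberg over 11870 genes. The thresholds were an adjusted p of 0.05 and, where stated, an absolute log2 fold change of 1. Standard errors are the absolute log2 fold change over the square root of F. The steps were run on simulated counts with 200 changed genes, all at an absolute log2 fold change of 1 or more. That run does not bear on the smaller changes reported here. The chi-square per degree of freedom between samples of a group was 1.85 to 2.56, so no library was counted as a copy of another. Total counts of 10430924 to 15191349 per sample set the precision of genes with few reads.

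The genes and lists were chosen with earlier results of these data known. Named genes are all 10 genes described, the 2 smallest p of each further list, and Parp1, Parp2, Sirt1 and Cd38. Parp10 and the sirtuin genes Sirt2, Sirt3, Sirt4, Sirt5, Sirt6 and Sirt7 were added after their values were seen. Alternatives were 3 other scalings, 2 other filters, 3 other tests (DESeq2 1.42.0, limma-voom 3.58.1 and edgeR's likelihood ratio test), a block for the replicate number, and refits that omit 1 of the 6 samples in turn. Promoter sequences came from RefSeq (GRCr8). Genes of the lists with no row were not analysed here, and coordinates of the counted genes are not given, since the counts use another build.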

Additional observations from a re-analysis of the deposited data

How the results depend on the processing

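Over 137 refits of the 10 genes, 129 changed neither sign nor call at an adjusted p of 0.05. The other 8 were 4 lost calls, all of Nmrk1, and 4 changes of sign, with log2 fold changes of 0.0062 and 0.056 for Nmnat2 (without Control replicate 2 and STZ replicate 3) and 0.0024 and 0.0026 for Nadk (without Control replicate 1 and STZ replicate 3). With 1 sample left out, Nmnat2 ranged from -0.23 to 0.056 and Nadk from -0.032 to 0.0026, and neither gene passed the test in any alternative. Naprt, reported with no filter, was tested in 2 others only, at -0.82 and -0.45. The calls of Nampt, Nadsyn1 and Nnmt held in all 15 alternatives, with log2 fold changes of -0.52 to -0.45, -0.58 to -0.50 and 1.07 to 1.30. Sirt1 changed sign near 0, at 0.00197 under the filter of at least 10 counts in every sample, 0.00032 under DESeq2, and lay between -0.024 and 0.024 with 1 sample left out.

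The number of the 10 genes called was 4, out of 9 tested, and 3 to 4 with 1 sample left out, out of 9 or 10 tested. Of them, 2 were higher, against 1 with DESeq2 and 1 to 2 with 1 sample left out. Among entry steps, 2 genes were higher, against 1 with upper-quartile scaling, 1 with library size only and 1 to 2 with 1 sample left out. NAD-consuming enzymes that were higher numbered 9, against 6 with library size only, 7 with upper-quartile scaling, 6 with DESeq2 and 6 to 8 with 1 sample left out, and those that were lower numbered 3, against 5 with library size only and 2 to 4 with 1 sample left out. Of carriers, hydrolysis and repair, 1 gene was higher, against 0 with DESeq2 and 0 to 1 with 1 sample left out, and 1 was lower, against 0 to 1 with 1 sample left out. For all of these the cause was not tested. The log2 ratio of Nadsyn1 over Naprt was -0.076 to 0.92 with 1 sample left out. The median log2 fold change of all genes lay between -0.039 (library size only) and -0.0019 (no filter). The number of all genes called was 6046 (50.9%), with 3070 higher and 2976 lower, and 5049 to 6199 over the alternatives. With DESeq2, 42.5% of all genes were called, 2598 higher and 2451 lower. Library size only gave 2664 higher and 3485 lower, and upper-quartile scaling gave 2830 and 3252. With 1 sample left out, 45.2% to 47% of all genes were called.

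Control and STZ share replicate numbers, but their deviations from the group means correlated by 0.047, -0.040 and 0.075 over 11870 genes, and 3 of 6 samples correlated best with their own number, which is no pairing. Under the replicate block, 4 of the 9 genes tested were called, 2 higher and 2 lower, beside 6199 (52.2%) of all genes tested.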
